A study of Mus musculus with 24 samples.

Results

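Eph receptors and ephrins are a family of paired cell-surface proteins, and 10 genes of the family, Epha3, Epha4, Epha5, Epha7, Ephb2, Ephb3, Efna2, Efna5, Efnb1 and Efnb2, were followed here over arrays of embryonic mouse jaws. They are 10 of the 22 mouse genes for Eph receptors and ephrins, and of the 18194 genes that the arrays named. Members were taken by symbol: each was read through the probe sets that the platform annotation maps to that symbol only, and the probe set with the highest mean over all arrays stood for the gene. By this rule 9 of the 10 members had a probe set, 29 in all, and all 9 passed the filter on low values. No probe set named Ephb2 alone in the annotation used, so that receptor was not analysed here. The members were chosen by family name with earlier results of the same arrays known, in which the difference of Epha5 between mutant and control arrays had been singled out. The genotype difference of Epha5 is therefore given as a description with no test, and the p-values of the other members are not independent evidence. Which values led to their choice is not recorded.

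The arrays compared jaws of E13.5 embryos that lack Tgfbr2, a receptor for TGF-beta ligands, in cells made by Wnt1-Cre with those of control litter mates. There were 24 arrays in 8 groups of 3: mutant distal mandible, mutant proximal mandible, mutant distal maxilla and mutant proximal maxilla, and the same 4 regions of controls. All embryos came from crosses of Wnt1-Cre; Tgfbr2 fl/+ with Tgfbr2 fl/fl mice on a C57B6 background at embryonic day 13.5. Mutants, which by that cross carry Wnt1-Cre and Tgfbr2 fl/fl, were recognised by their cleft palate and calvarial defect, and the labels do not say which controls carried Cre or 1 floxed allele. Wnt1-Cre acts in cells of the cranial neural crest, which form most of the jaw mesenchyme, so muscle, endothelium, surface epithelium and blood cells of the mutants keep the receptor. Distal and proximal ends of each jaw were taken apart. The labels do not say whether an array holds 1 embryo or a pool. Arrays that share a genotype and a replicate number, 1 from each of the 4 regions, are called a set below, and there were 3 mutant and 3 control sets. Nothing in the labels says that replicates are separate embryos. In both genotypes set 1 differed from sets 2 and 3 in Xist, as given below, so the replicates of a group do not all hold the same animals. The p-values below speak only for the spread among these arrays.

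Eph receptors are receptor tyrosine kinases, and ephrins are their ligands, held in the membrane of the neighbouring cell. EphA receptors mostly bind the ephrin-A ligands, which sit on a lipid anchor, and EphB receptors mostly bind the ephrin-B ligands, which cross the membrane and can themselves signal. EphA4 binds ligands of both classes. Contact between a receptor and a ligand on adjacent cells often makes the cells draw apart, which keeps cell groups separate and steers migrating cells and axons. In the face, EphB receptors and ephrin-B1 take part in palate and jaw growth, and ephrin-B1 mutations cause craniofrontonasal syndrome in humans.

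Promoters of Epha5 and Epha7 are shown because these receptors had the largest genotype differences among the members. The sequences are from RefSeq on GRCm38.p6, 250 bases before to 50 bases after the gene's start, read on the gene's own strand. Capitals mark the SMAD box, CAGAC or GTCTG on the other strand, a short motif that SMAD proteins, the transcription factors downstream of TGF-beta receptors, can bind. The Epha5 promoter lies at chr5:84417333-84417632 on the minus strand, and the first Epha7 promoter at chr4:28812881-28813180 on the plus strand.
Epha5: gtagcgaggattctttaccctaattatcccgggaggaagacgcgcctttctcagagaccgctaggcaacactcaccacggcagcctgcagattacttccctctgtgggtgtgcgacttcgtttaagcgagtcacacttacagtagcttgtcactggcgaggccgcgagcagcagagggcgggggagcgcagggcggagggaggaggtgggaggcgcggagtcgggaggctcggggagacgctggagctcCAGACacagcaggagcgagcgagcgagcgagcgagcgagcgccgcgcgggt
Epha7: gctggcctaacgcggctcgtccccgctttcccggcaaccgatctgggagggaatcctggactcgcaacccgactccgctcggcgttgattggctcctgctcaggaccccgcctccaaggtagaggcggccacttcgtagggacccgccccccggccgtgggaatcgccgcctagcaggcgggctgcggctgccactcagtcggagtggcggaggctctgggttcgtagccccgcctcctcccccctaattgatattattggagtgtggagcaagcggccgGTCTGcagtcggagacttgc
Both windows hold 1 SMAD box. The motif was present in a promoter of 8 of the 10 members, against 49.6% of 32851 promoters of the same length. The E-box CAGGTG, or CACCTG on the other strand, which Snail and Zeb repressors can bind, was present in 2 of the 10 members, against 20.2% of all promoters, and no match of either motif overlapped the other. Epha5 and Epha7 promoters were 64.3% and 67.0% G and C, with 30 and 28 CpG pairs. A match of letters is a description and is not a site at which a factor was measured.

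Before the members are described, 3 checks of the samples bear on them. Tgfbr2 itself was higher in mutants, at a mean of 12.42 against 12.11 in controls on the log2 scale, a difference of 0.31 ± 0.0543 (SE), adjusted p = 0.000296, and 0.02 with the mean of its probe sets. The position of its probes relative to the deleted part is not given, so this neither checks nor contradicts the labels. The Gapdh control probe sets, whose 3′ minus 5′ difference grows when RNA is degraded or shortened, averaged 0.455, 0.0594 and 0.543 in mutant sets 1, 2 and 3, against 0.0138, 0.0708 and 0.0308 in control sets 1, 2 and 3. Mutant sets 1 and 3 thus stood apart from mutant set 2 and from all control sets. Xist, made from the inactive X chromosome, averaged 6.50, 13.52 and 13.19 in mutant sets 1, 2 and 3, against 6.31, 13.68 and 13.65 in control sets. Genes of the Y chromosome averaged 10.01, 8.81 and 9.20 in the mutant sets, against 9.97, 3.82 and 3.88 in the control sets. Mutant sets 2 and 3 therefore carried both kinds of transcript, while control sets 2 and 3 lacked the Y-linked signal.

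In mutant jaws Epha5 was higher than in control jaws in every region, and Epha7, Efnb1 and Efna2 were higher by smaller amounts when the 4 regions were averaged. Epha5 was 2.15-fold higher, Epha7 1.29-fold, Efnb1 1.21-fold and Efna2 1.14-fold. Of the 8 members other than Epha5, 3 were called higher at an adjusted p under 0.05 and 0 were called lower. That is 37.5% of them, while 33.7% of the 13850 genes tested were called in this comparison, so the share was near that of all genes. With Epha5 included, the median difference of the 9 members was 0.15, against 0.02 over all genes. The members were chosen with earlier results known, so these medians are a description. The samples are whole pieces of tissue, in which fewer cells of a type and less RNA per cell cannot be told apart.

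Epha5 encodes a receptor best known for guiding axons that meet ephrin-A ligands. In the distal mandible its log2 values were 8.20, 8.58 and 7.94 in mutants, against 7.62, 7.43 and 7.70 in controls. In the proximal mandible they were 8.44, 8.71 and 8.26 in mutants, against 7.13, 6.87 and 7.15 in controls. All mutant arrays lay above all control arrays in both regions. In the distal maxilla the values were 8.11, 8.49 and 8.45 in mutants, against 7.25, 7.35 and 7.05 in controls. In the proximal maxilla they were 8.55, 8.82 and 8.34 in mutants, against 7.37, 7.19 and 7.55 in controls. Over all regions mutant arrays spanned 7.94 to 8.82, with a median of 8.44, and control arrays 6.87 to 7.70, with a median of 7.30, so the genotypes did not overlap. The difference was 0.66 in the distal mandible, 1.42 in the proximal mandible, 1.13 in the distal maxilla and 1.20 in the proximal maxilla, each with an SE of 0.163, and 1.10 ± 0.0817 on average. The 4 mutant groups took the first 4 places in the order of group means, and neighbours within a genotype overlapped. Its other probe sets were also higher in mutants, by 1.00, 0.95 and 0.28, the last of them the dimmest and above the filter on 0 arrays. Epha5 was the dimmest member, with a mean of 7.86 over all arrays, against 10.30 for Efnb1, the next.

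Epha7, a receptor that in mouse helps close the neural tube and guide axons, was higher in mutants by 0.37 ± 0.0584, adjusted p = 0.000108. In the distal maxilla it read 10.89, 11.23 and 11.13 in mutants, against 10.56, 10.73 and 10.19 in controls, a difference of 0.59 ± 0.117, adjusted p = 0.00701. In the proximal maxilla it read 11.42, 11.21 and 11.18 in mutants, against 10.81, 10.90 and 10.85 in controls, a difference of 0.41 with adjusted p = 0.0438. Mutant and control arrays did not overlap in either end of the maxilla. In the distal mandible the values were 11.20, 11.44 and 11.21 in mutants, against 11.19, 11.16 and 11.00 in controls, and the difference of 0.17 did not pass the test. In the proximal mandible they were 10.96, 11.02 and 10.89 in mutants, against 10.54, 10.76 and 10.64 in controls, and the difference of 0.31 did not pass the test, adjusted p = 0.134. Arrays did not overlap in these regions either. The call in the distal maxilla was lost without control set 3, adjusted p = 0.0933. That in the proximal maxilla was lost without any of the 3 control sets. Leaving out mutant set 1 or 3 lost it too, and adjusted p over these fits was between 0.0797 and 0.215. Of 16 alternatives, 14 kept the average call, 13 that in the distal maxilla and 6 that in the proximal maxilla. When its probe sets were averaged, Epha7 differed by 0.14 over the 4 regions, adjusted p = 0.218. It was then called neither on average nor in either end of the maxilla.

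Epha3 and Epha4 are receptors of mesenchyme and neurons, and EphA3 binds mainly ephrin-A5. Neither passed the test on average. Epha3 had 11.72 as its lowest, 12.47 as its median and 13.07 as its highest value in mutants, against 11.78, 12.38 and 12.54 in controls, a difference of 0.15 ± 0.101. Epha4 had 10.83, 11.17 and 12.29 in mutants, against 10.75, 11.08 and 11.63 in controls, a difference of 0.13 ± 0.111. Both overlapped between genotypes in every region, and their widest spread was in the distal maxilla. There Epha3 read 12.20, 13.07 and 12.67 in mutants, against 12.52, 12.13 and 11.78 in controls, and Epha4 read 11.13, 12.29 and 11.59 in mutants, against 11.52, 11.53 and 10.75 in controls. Mutant set 2 gave the highest value of each.

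Ephb3, a receptor whose loss together with Ephb2 causes cleft palate in mouse, had 11.33, 11.72 and 12.29 as its lowest, median and highest values in mutants, against 11.37, 11.70 and 12.09 in controls. The average difference of 0.07 ± 0.0522 did not pass the test, and the arrays overlapped in every region.

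Among the ligands, Efna2 read 10.90, 10.36 and 10.68 in the mutant distal mandible, against 10.52, 10.51 and 10.35 in controls, and 10.80, 10.40 and 10.76 in the mutant distal maxilla, against 10.47, 10.34 and 10.31 in controls. In the proximal mandible it read 10.43, 10.36 and 10.37 in mutants, against 10.21, 10.28 and 10.20 in controls, and in the proximal maxilla 10.39, 10.35 and 10.61 in mutants, against 10.40, 10.25 and 10.27 in controls. The groups overlapped except in the proximal mandible, and mutant set 2 was low among mutants at both distal ends. The average difference was 0.19 ± 0.0573, adjusted p = 0.0140, and the call was lost without control set 2 or 3 or mutant set 1 or 3, at adjusted p between 0.0598 and 0.109. Efna5, the other ephrin-A member, had 11.35, 11.57 and 11.99 as its lowest, median and highest values in mutants, against 11.38, 11.56 and 11.85 in controls. Its difference of 0.02 ± 0.0462 did not pass the test.

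Efnb1 lies on the X chromosome. It read 10.87, 10.40 and 10.53 in the mutant distal mandible, against 10.22, 10.38 and 10.17 in controls, and 10.36, 10.31 and 10.35 in the mutant proximal mandible, against 10.17, 10.26 and 10.23 in controls. In the distal maxilla it read 10.65, 10.17 and 10.38 in mutants, against 10.04, 9.94 and 10.01 in controls, and in the proximal maxilla 10.42, 10.22 and 10.63 in mutants, against 10.23, 10.29 and 10.10 in controls. The groups did not overlap except in the proximal maxilla. The average difference was 0.27 ± 0.0601, adjusted p = 0.00208. Set 1 had low Xist and high Y-linked values in both genotypes, and there Efnb1 averaged 10.57 in mutants, against 10.16 in controls, a difference of 0.41. Efnb2, a ligand that also patterns arteries, had 11.85, 12.10 and 12.47 as its lowest, median and highest values in mutants, against 11.78, 11.93 and 12.33 in controls. Its difference of 0.10 ± 0.0457 did not pass the test, adjusted p = 0.0873.

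**Figure D1:**
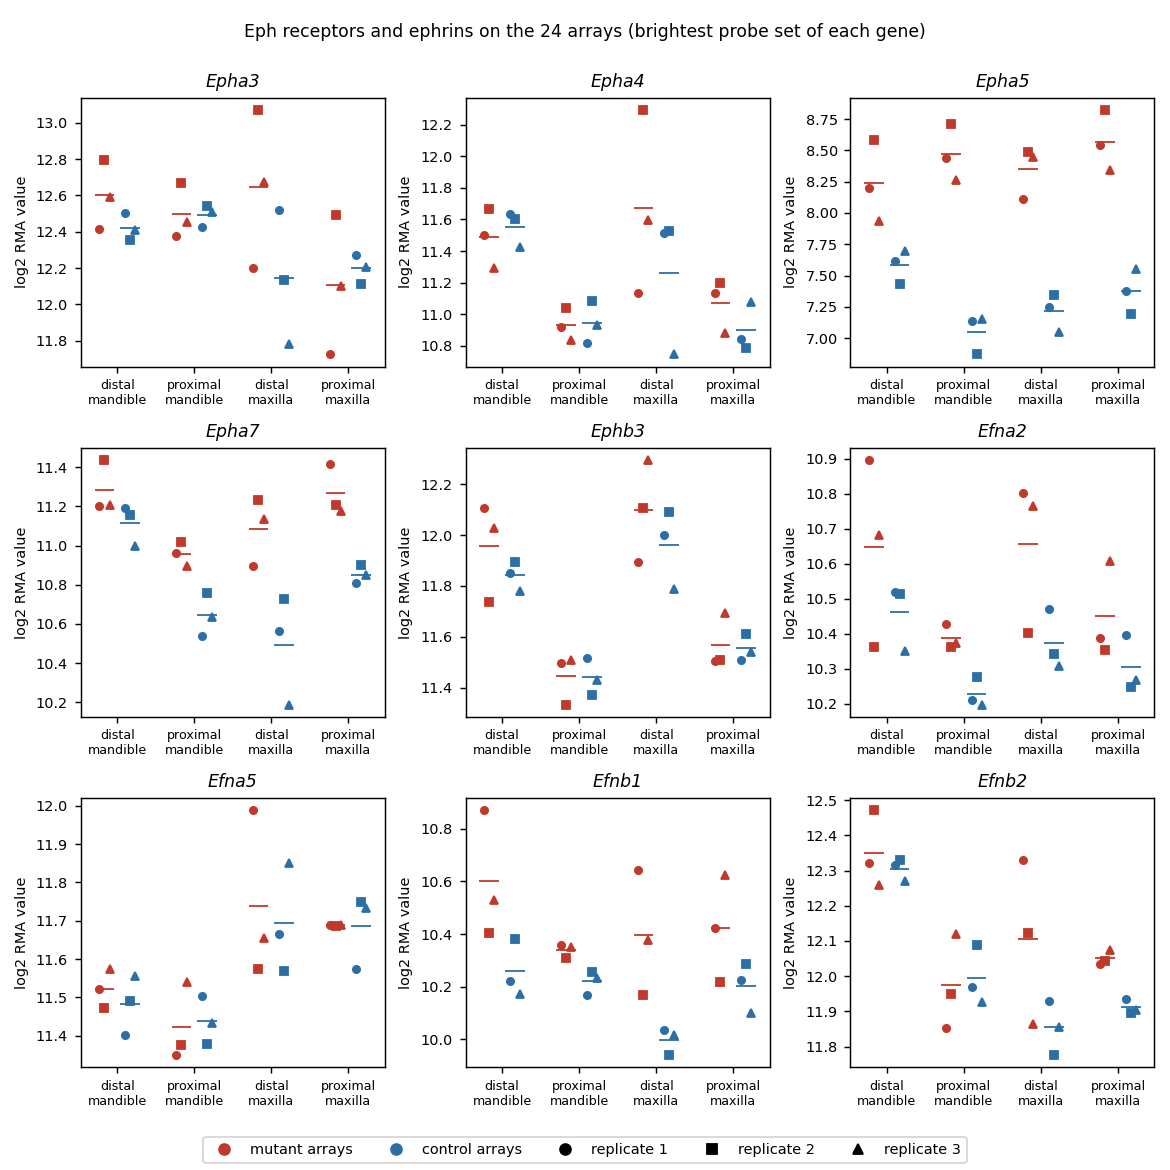
Each panel gives the log2 RMA value of 1 member on every array, by region, with mutant arrays left of control arrays, marker shapes for the replicate number and lines at group means. Epha5 values of mutants, 7.94 to 8.82, all sit above those of controls, 6.87 to 7.70, while every other member overlaps between genotypes over the 4 regions.

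The region-by-region tests called few members. Of the 8 members other than Epha5, limma called 0 in the distal mandible, against 0.895% of all genes, and 0 in the proximal mandible, against 5.36%. At an unadjusted p under 0.05 there was 1 of them in each, Efnb1 in the distal and Epha7 in the proximal mandible. The shares of all genes at that threshold were 15.1% and 19.6%. In the distal maxilla 1 of the 8, Epha7, was called, against 7.08% of all genes, and in the proximal maxilla 1, again Epha7, against 5.7% of all genes. With Epha5 included, 6 of 9 members had an unadjusted p under 0.05 in the distal maxilla, against 22.5% of all genes. In the proximal maxilla 2 of 9 did, against 21.4%. Whether the genotype effect differs between regions was tested directly. For jaw, for end and for both together, limma called 0 of the 8 members other than Epha5 and 0% of all genes. At an unadjusted p under 0.05 there was 1 of the 8 by jaw, Epha7, and there were 0 in the other two tests, against 3.47%, 3.1% and 3.84% of all genes. The calls in single regions are thus not shown to differ from region to region.

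Arrays of a set resembled each other beyond their groups, so the average effect was also fitted with the set as a random block. Then 1 of the 8 members other than Epha5 was called, against 11.6% of all genes: Epha7, at adjusted p = 0.0162, while Efnb1 stood at 0.0554 and Efna2 at 0.14. With 1 value per set, which leaves 3 values per genotype, limma called 0 of the 8, against 0.578% of all genes, and the adjusted p was 0.0664 for Epha7, 0.14 for Efnb1 and 0.238 for Efna2.

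The mutant sets did not move alike, and the members split into groups by that measure. The differences of mutant sets 1, 2 and 3 from the control mean were 1.02, 1.35 and 0.94 for Epha5 and 0.34, 0.45 and 0.33 for Epha7, so all sets were higher for both receptors. For Epha3 they were −0.13, 0.44 and 0.14, and for Epha4 0.01, 0.38 and −0.01, with mutant set 2 apart. For Efna2 they were 0.29, 0.03 and 0.27, and for Efnb1 0.41, 0.11 and 0.30, with sets 1 and 3 apart. Over all genes the median of the same differences was 0.03, −0.03 and 0.05.

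The other probe sets of the same genes showed the split more strongly. Of the 29 probe sets of the 9 members, 12 were higher in all 3 mutant sets and 1 was lower in all 3, the third probe set of Efnb2. Another 10 were lower than controls in mutant sets 1 and 3 but higher in set 2, and in 20 of the 29 set 2 lay above both other sets. The same counts were not made over all probe sets of the arrays, so the split is not shown to be particular to the members. The third probe set of Epha3 differed from controls by −0.85, 0.52 and −0.84 in mutant sets 1, 2 and 3, and the third of Epha7 by −0.69, 0.28 and −0.65. The sets with low values are those whose Gapdh 3′ minus 5′ difference was raised, at 0.455 and 0.543, against 0.0594 in set 2. The part of RNA quality in the low values was not tested. In control sets the Gapdh difference was 0.0138, 0.0708 and 0.0308, so as a covariate it cannot be told apart from mutant sets 1 and 3. With that difference as a covariate, the average effect called Epha3 at 0.39 (adjusted p = 0.0103), Epha4 at 0.40 (adjusted p = 0.0140) and Epha7 at 0.46, against 42.2% of all genes, and Epha5 differed by 1.30. Efna2 and Efnb1 were not called in it, at 0.01 and 0.09. With mutant set 2 alone the mutant arm is 1 set, so its calls rest on the spread between control sets, and the 4 regions stand in for replicates of it. In that fit Epha3 at 0.44, Epha4 at 0.38, Epha7 at 0.45 and Efnb2 at 0.13 were called, against 47.6% of all genes, Epha5 differed by 1.35, and Efna2 and Efnb1 by 0.03 and 0.11 without a call.

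**Figure D2:**
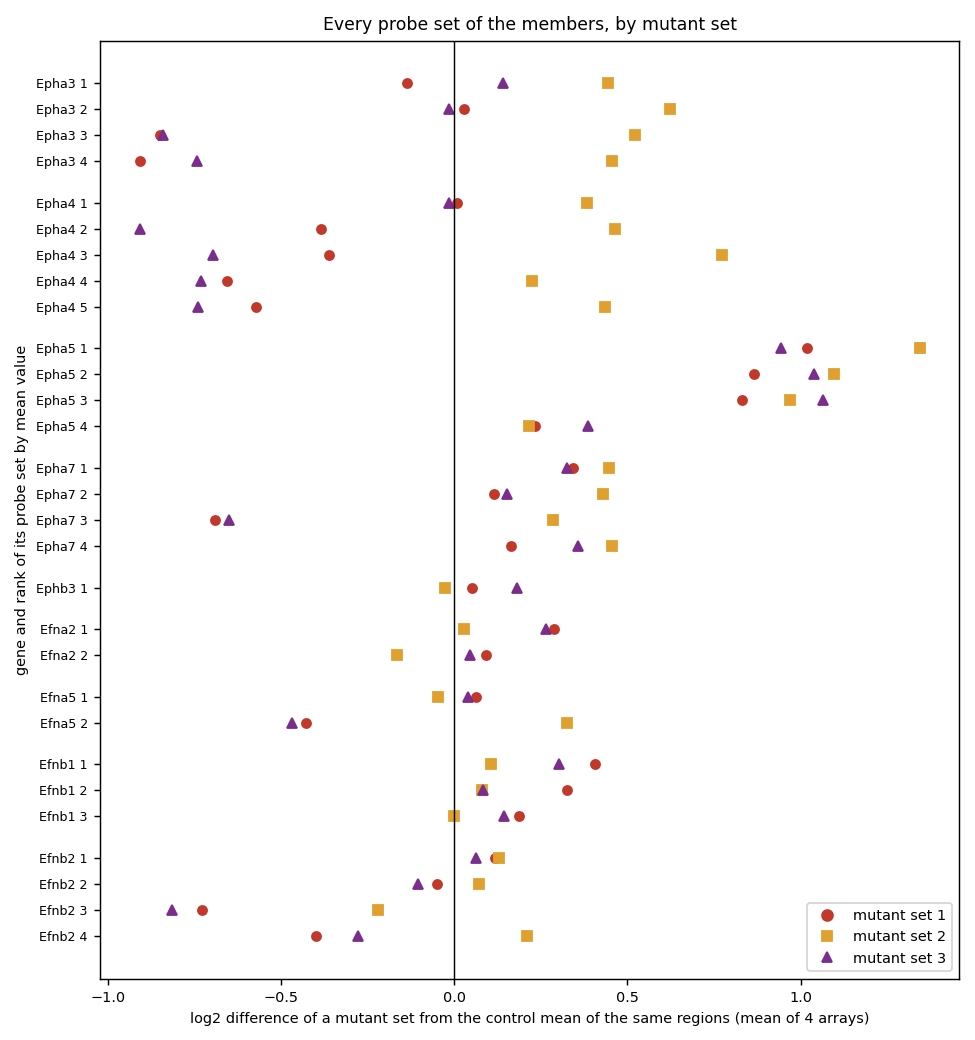
Each row is 1 of the 29 probe sets of the members, numbered by mean value within its gene, and points give the log2 difference of mutant sets 1, 2 and 3 from the control mean over the 4 regions. The first 3 Epha5 probe sets sit near 1 in every set, while set 2 lies apart from sets 1 and 3 for most probe sets of Epha3 and Epha4, as in the third Epha3 probe set at −0.85, 0.52 and −0.84.

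Cell type markers are given beside the genotype differences as measured values. Of 8 endothelial markers, 1 was higher and 4 were lower in mutants, and their mean level spanned 9.42 to 9.90 on mutant arrays, against 9.52 to 9.92 on control arrays. Of 7 macrophage markers, 1 was higher and 3 were lower, spanning 8.49 to 9.40 in mutants, against 8.91 to 9.70 in controls. None of 10 neuronal markers passed the test, which spanned 8.21 to 11.08 in mutants, against 8.13 to 10.80 in controls. Of 6 markers of neural crest mesenchyme 1 was higher, and they spanned 11.96 to 12.56 in mutants, against 11.98 to 12.58 in controls. Of 3 red blood cell markers tested 2 were lower, with a median difference of −0.58, spanning 8.58 to 9.79 in mutants, against 9.32 to 10.10 in controls. Of 4 Schwann cell markers tested 2 were higher, spanning 9.03 to 10.17 in mutants, against 9.10 to 10.19 in controls. Of 3 bone markers tested 1 was higher, spanning 8.72 to 11.92 in mutants, against 7.90 to 10.83 in controls, and 1 of 10 epithelial markers was higher, with group means of 10.17 to 11.14 in mutants, against 9.69 to 11.09 in controls. None of 10 muscle markers and 7 cartilage markers passed the test. The part of these cells in the differences of the members was not tested.

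Eph receptors and ephrins outside the list were compared in the same fit. Of 12 such genes, 11 passed the filter, all but Epha6. In the average genotype effect 3 of the 11 were higher and 1 was lower, while 33.7% of all genes were called either way. Epha2, a receptor of epithelia, was higher by 0.33 ± 0.0469, adjusted p = 4.17e-05, and 0.0738 with 1 value per set. Ephb1 was higher by 0.29, adjusted p = 0.0369, and this call was lost under 9 of 16 alternatives, among them each control set and mutant sets 1 and 3 left out. The ligand Efnb3 was higher by 0.24, adjusted p = 0.00320, and was not called with the set as a random block, with 1 value per set, with the Gapdh covariate or with mutant set 2 alone. The ligand Efna4 fell by 0.51 ± 0.0918 (SE), adjusted p = 0.000404, and 0.0963 with 1 value per set. With the Gapdh covariate it differed by −0.17. Its differences in mutant sets 1, 2 and 3 were −0.62, −0.21 and −0.68, lower in all 3. In single regions Epha2 was the only gene of these 11 called for genotype, by 0.42 in the proximal mandible, 0.34 in the distal maxilla and 0.45 in the proximal maxilla. Each of these 3 calls was lost without control set 1 or without control set 3, and the largest adjusted p over their alternatives was 0.424.

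**Figure D3:**
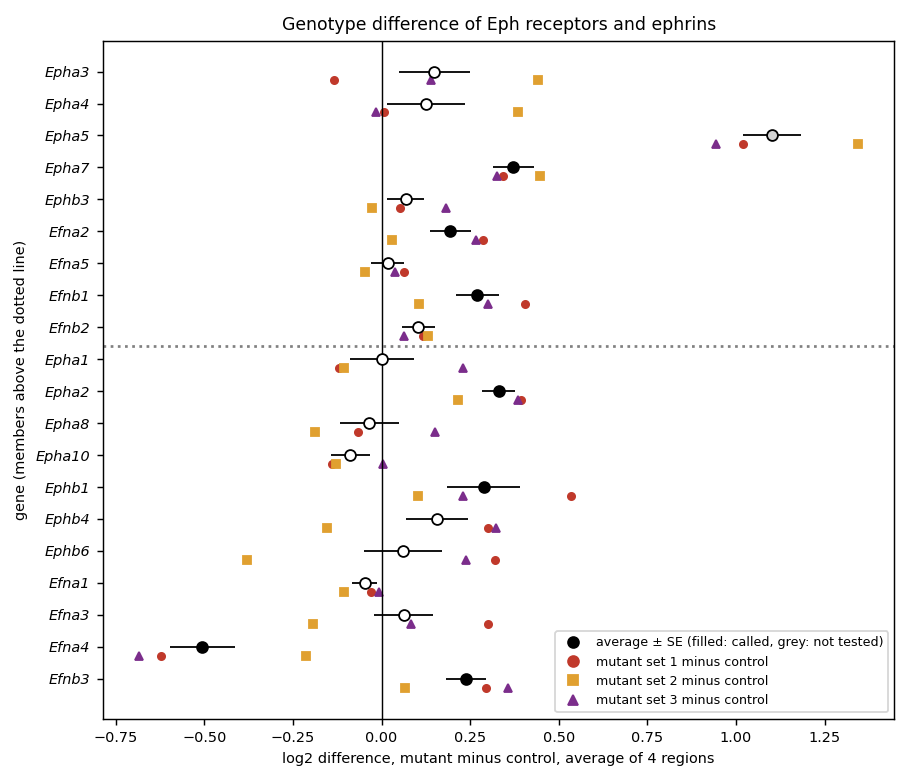
Each row is an Eph receptor or ephrin that was tested, members above the dotted line, with the log2 difference of mutant minus control averaged over 4 regions with its SE, filled where called and grey for Epha5, which was not tested, and the 3 mutant sets as coloured points below it. Epha5 stands at 1.10, Epha2 at 0.33 and Efna4 at −0.51, and the mutant sets of Epha3 range from −0.13 to 0.44.

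Proteins that act with Eph receptors inside the cell, such as adaptor proteins, Src family kinases and PDZ proteins bound by ephrin-B, were followed as a list of 28 genes. On average 10 were higher in mutants, 4 were lower and 14 did not pass the test, while 33.7% of all genes were called. Grip1, a PDZ scaffold of ephrin-B ligands, was higher by 0.39 ± 0.0446, adjusted p = 5.87e-06. Adam10, a protease that sheds ephrins, was higher by 0.20 ± 0.0273, adjusted p = 3.26e-05. Kalrn, an exchange factor, was higher by 0.34 ± 0.0548, adjusted p = 0.000141, while Chn1, a GTPase-activating protein downstream of Epha4, was lower in mutants, at −0.27 ± 0.0437 with adjusted p = 0.000148. With the mean of their probe sets Adam10 differed by −0.18 and Kalrn by −0.023, and neither these nor Chn1 were called. With 1 value per set none of the 4 was called, at adjusted p between 0.0544 and 0.102. The median of the 28 was 0.12, against 0.02 over all genes.

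The jaws also differed by end. In mutant mandibles 2 of 9 members were higher at the distal end than at the proximal end, Ephb3 and Efnb2, against 15.9% of all genes called. In control mandibles 4 of 9 were higher distally, Epha5, Epha7, Ephb3 and Efnb2, against 13.3% of all genes. In the maxilla only Ephb3 was called, in mutants and in controls alike, against 5.15% of all genes in mutant and 6.06% in control maxillae. Ephb3 was thus the 1 member called between ends in both jaws of both genotypes.

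In mutant mandibles Ephb3 read 12.10, 11.74 and 12.03 distally, against 11.50, 11.33 and 11.51 proximally, and in control mandibles 11.85, 11.90 and 11.78 distally, against 11.52, 11.37 and 11.43 proximally. The differences were 0.51 in mutants, adjusted p = 0.00179, and 0.40 in controls, adjusted p = 0.0134. In mutant maxillae it read 11.90, 12.10 and 12.29 distally, against 11.50, 11.51 and 11.69 proximally, and in control maxillae 12.00, 12.09 and 11.79 distally, against 11.51, 11.61 and 11.54 proximally, with differences of 0.53, adjusted p = 0.00502, and 0.41, adjusted p = 0.0235. Every distal array lay above every proximal array of its jaw and genotype. All 4 distal groups stood above all 4 proximal groups, and the nearest of these groups, control distal mandible at 11.84 and mutant proximal maxilla at 11.57, did not overlap. Each SE was 0.104, and in both control jaws the call was lost when any 1 of the 3 control sets was left out, at adjusted p between 0.0756 and 0.189 in the mandible and between 0.0872 and 0.339 in the maxilla.

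Efnb2 read 12.32, 12.47 and 12.26 in the mutant distal mandible, against 11.85, 11.95 and 12.12 in the mutant proximal mandible, a difference of 0.38 with adjusted p = 0.00702. In control mandibles it read 12.31, 12.33 and 12.27 distally, against 11.97, 12.09 and 11.93 proximally, a difference of 0.31 with adjusted p = 0.0284. The ends did not overlap in either genotype. The call in mutants was lost without mutant set 2, adjusted p = 0.0793, and that in controls without any 1 control set, at adjusted p between 0.126 and 0.243. In the maxilla its end differences of 0.06 in mutants and −0.06 in controls did not pass the test.

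Epha5 differed between ends by −0.23 in mutant mandibles, which did not pass the test, and was higher distally by 0.53 in control mandibles, adjusted p = 0.0370. Its control values were 7.62, 7.43 and 7.70 distally, against 7.13, 6.87 and 7.15 proximally, with no overlap. The call was lost without any 1 control set, at adjusted p between 0.184 and 0.211. The genotype difference of the end effect was fitted over both jaws and not in the mandible alone. There Epha5 differed by −0.41, which is given as a description with no test.

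The end comparisons above were fitted without pairing. Arrays of a set deviated together, and with the set as a replicate block more members were called between ends. More of all genes were called as well. In the mutant mandible 6 were called, against 28.5% of all genes, adding Epha4 at 0.56 (adjusted p = 0.0497), Epha7 at 0.32 (0.0297), Efna2 at 0.26 (0.0341) and Efnb1 at 0.26 (0.0470). In the control mandible 5 were called, against 23.8% of all genes, adding Epha4 at 0.61 (adjusted p = 0.0390). In the mutant maxilla Epha3 was added, at 0.54 (adjusted p = 0.0155), against 11.1% of all genes called. In the control maxilla Epha7 was added, lower distally at −0.36 (adjusted p = 0.0370), against 11.4%.

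The end difference was also compared between the jaws, mandible minus maxilla, in tests added after seeing the data. In mutants limma called 0 of 9 members, against 1.32% of all genes. There 2 members had an unadjusted p under 0.05, against 9.66% of all genes. Epha7 stood at 0.50, with end differences of 0.32 in mutant mandibles and −0.18 in mutant maxillae, neither called without pairing. In controls, as in mutants, Epha7 showed end differences of opposite sign in the jaws. The genotype effect by jaw and end was −0.33 for Epha7 and was not called. In control mandibles it read 11.19, 11.16 and 11.00 distally, against 10.54, 10.76 and 10.64 proximally, a difference of 0.47 ± 0.117 with adjusted p = 0.00979. In control maxillae it read 10.56, 10.73 and 10.19 distally, against 10.81, 10.90 and 10.85 proximally, a difference of −0.36 that did not pass the test. The difference between these end differences was 0.83 ± 0.165, adjusted p = 0.0100. That test called 1 of 9 members and 2.73% of all genes, and lost Epha7 without control set 1, adjusted p = 0.202, or set 3, adjusted p = 0.115. With the replicate block Epha5 was called as well, at 0.69 with adjusted p = 0.0299. The mandible call of Epha7 was lost without control set 1, adjusted p = 0.214.

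Between the jaws of mutants limma called 0 of 9 members at the distal ends, against 4.92% of all genes, and 0 of 9 at the proximal ends, against 5.69%. At an unadjusted p under 0.05 there were 2 members in each, against 14.6% of all genes distally and 17.4% proximally. In controls, distal ends of mandibles had more Epha7 and more Efnb2 than distal ends of maxillae. Epha7 read 11.19, 11.16 and 11.00 in control distal mandibles, against 10.56, 10.73 and 10.19 in control distal maxillae, a difference of 0.62 ± 0.117 with adjusted p = 0.00147. Efnb2 read 12.31, 12.33 and 12.27 in control distal mandibles, against 11.93, 11.78 and 11.86 in control distal maxillae, a difference of 0.45 ± 0.0915 with adjusted p = 0.00295. The jaws did not overlap for either gene. Of 9 members these 2 were called, against 9.21% of all genes, and the Efnb2 call was lost without control set 2, adjusted p = 0.0961, or set 3, adjusted p = 0.0549. At the proximal ends of controls limma called 0 of 9 members, against 2.61% of all genes. There 1 member had an unadjusted p under 0.05, against 11% of all genes. Efna5 differed by −0.22 and −0.27 in mutants and by −0.21 and −0.25 in controls at the distal and proximal ends, without passing the test.

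**Figure D4:**
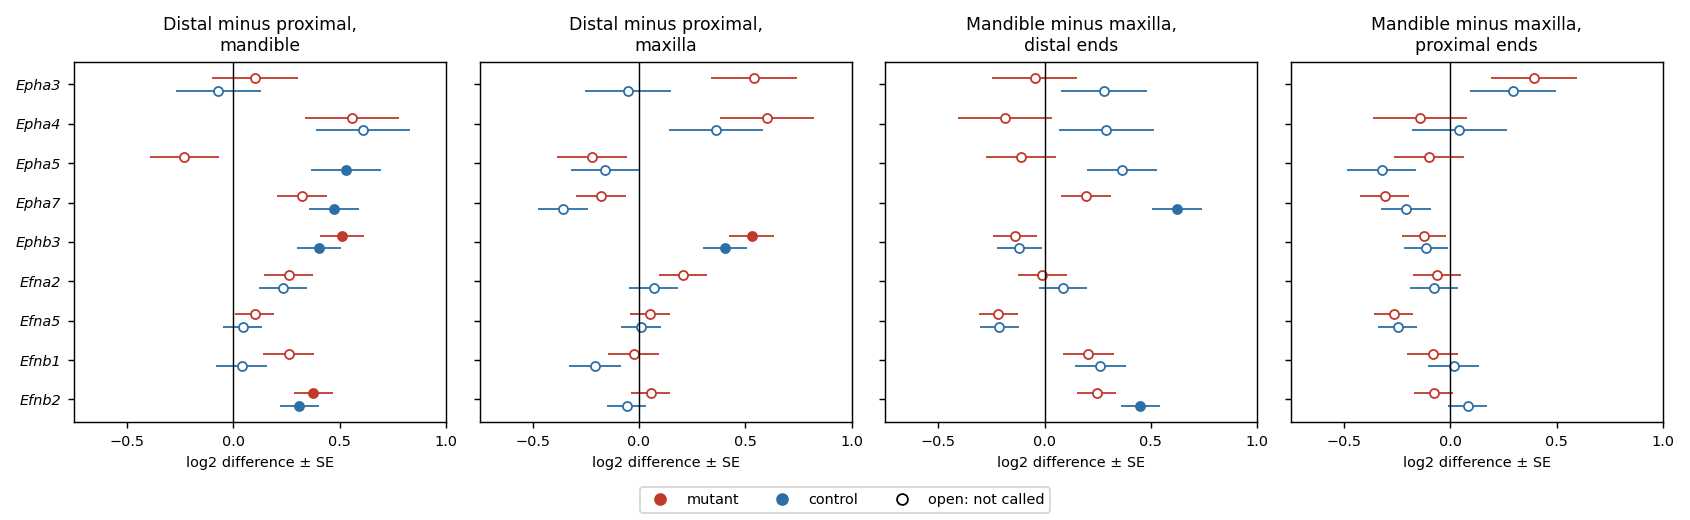
Points give log2 differences with SE between the distal and proximal ends of each jaw and between the mandible and maxilla at each end, mutants above controls, filled where called. Ephb3 is filled in both end comparisons of both genotypes, at 0.51 and 0.53 in mutants and 0.40 and 0.41 in controls, and Epha7 and Efnb2 are filled between distal ends of controls at 0.62 and 0.45.

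The ends and jaws also differ in the cells they hold, and these values stand beside the regional results. In mutant mandibles 9 of 10 skeletal muscle markers were lower distally, with mean levels of 9.42 to 9.47 distally, against 11.33 to 11.49 proximally. In control mandibles 10 of 10 were lower distally, at 7.98 to 9.27 distally, against 11.25 to 11.77 proximally. Muscle markers were thus lower at the distal end of the mandible in both genotypes. In mutant mandibles 6 of 10 epithelial markers were higher distally, at 11.07 to 11.26 against a mean of 10.17 and a highest value of 10.28 proximally. In control mandibles 5 of 10 were, at 11.00 to 11.20 distally, against 10.19 to 10.37 proximally. Macrophage markers were lower distally too, 5 of 7 in mutant mandibles, at 8.49 to 8.80 against 9.10 to 9.34 proximally, and 4 of 7 in control mandibles, at 8.91 to 9.11 against 9.26 to 9.70. Of 6 markers of neural crest mesenchyme 2 were higher distally in mutant mandibles, at 12.50 to 12.56 against 12.15 to 12.33. In control mandibles 2 were higher and 1 was lower, at 12.41 to 12.58 against 12.16 to 12.24. In mutant maxillae 2 of the 6 were higher distally, and in control maxillae 0. Of 3 bone markers tested 2 were lower distally in mutant mandibles and 1 in control mandibles. In mutant maxillae 6 of 10 epithelial markers were higher distally, at 10.68 to 11.49 against 10.01 to 10.69 proximally, and 3 of 10 muscle markers were lower, at 9.92 to 11.50 distally, against 11.20 to 12.31 proximally. In control maxillae 7 of 10 epithelial markers were higher distally, at 10.76 to 10.99 against 9.54 to 9.81 proximally, and 8 of 10 neuronal markers were lower, at 8.13 to 8.26 distally, against 10.40 to 10.80 proximally. There 4 of 7 cartilage markers were lower distally, at 7.88 to 8.31 against 10.28 to 11.40. Between distal ends of controls 10 of 10 muscle markers were lower in the mandible, at 7.98 to 9.27, against 11.31 to 11.77 in the maxilla. Of 7 cartilage markers 5 were higher in the mandible, at 9.38 to 11.68 against 7.88 to 8.31 in the maxilla, and of 7 macrophage markers 5 were lower, at 8.91 to 9.11 against 9.46 to 9.59. Of 6 markers of neural crest mesenchyme 2 were higher in the mandible and 0 lower, at 12.41 to 12.58 against 11.98 to 12.27. The part of these cells in the regional differences of the members was not tested.

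Among the other family members, Epha1, a receptor of epithelia, was higher distally in control maxillae by 1.12, adjusted p = 0.000631. It differed in the same direction by 0.49 in control mandibles, 0.69 in mutant mandibles and 0.63 in mutant maxillae. Epithelial markers were higher distally in each of these jaws, and their part in the Epha1 differences was not tested. Epha2 was higher in control mandibles than in control maxillae, by 0.55 at the distal ends, adjusted p = 0.000629, and by 0.45 at the proximal ends, adjusted p = 0.0123, a call that was lost without any 1 of the control sets. Of the 28 signalling genes, Ptpro, a phosphatase that acts on Eph receptors, was lower distally in control maxillae, at −1.32 with adjusted p = 4.01e-05. There 3 of the 28 were called in all, against 6.06% of all genes. In control mandibles 3 of the 28 were called between ends, against 13.3% of all genes: Chn1 at −0.30, Fyn at −0.49 and Adam10 at 0.18. Each was lost without any 1 of the control sets. Between control jaws 3 of the 28 were called at the distal ends, against 9.21% of all genes: Grip1 at −0.51, Rgs3 at 0.45 and Fyn at −0.48. At the proximal ends 2 were called, against 2.61% of all genes, Ptpro at −0.99 and Grip1 at −0.40. Rgs3 was lost without control set 2 or 3, Fyn and the proximal Grip1 call without any 1 control set, and Ptpro without control set 1 or 3.

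Of the 9 members only Epha5 had group means that spanned more than 1 on the log2 scale, at 1.52, so genes of like pattern were sought for it alone. Over the 8 group means the 3 most alike were Btd, with a Pearson r of 0.989, Foxo1, with 0.988, and Parp11, with 0.987. Their group means spanned 0.37, 0.42 and 0.21. The groups share the genotype contrast and the sets, so this is a description and no p is given.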

How the data were processed

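The 24 arrays (Affymetrix Mouse Genome 430 2.0, by their probe set names and annotation) were read from 1 table of log2 values, which per the submitters' processing notes the authors made with RMA before they deposited it. Per the labels' protocols RNA came from an RNeasy kit, and 5 µg of total RNA was labelled. The sources used here give neither a genome build nor a version of RMA. The number of arrays limits the precision.

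Of 45101 probe sets, 34958 name 1 gene, 932 several and 9211 none, and 34754 of those naming 1 gene matched a current RefSeq symbol. For each of 18194 genes the probe set with the highest mean was kept, and 13850 genes passed the filter (above the 40th percentile of the array on at least 3 arrays). limma 3.58.1 in R 4.3.3 fitted the 8 groups over all arrays with 16 residual degrees of freedom and adjusted p-values by Benjamini-Hochberg over all 13850 genes. A gene is called at an adjusted p under 0.05. There were 18 comparisons, 3 of them added after seeing the data (the end difference by jaw in mutants and in controls, and the genotype effect by jaw and end). Scripts were tested on simulated data.

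The members, lists and rules were chosen with earlier results of these data known. The text names all members, other family genes past the threshold for the average genotype effect or between control groups, up to 4 signalling genes by smallest p, and genes most like a member.

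The pairing check used deviations from group means. Of 36 pairs of arrays of the same set, 34 correlated over 0.1, with a median of 0.316, and both others were in control set 2, each with its proximal maxilla. In every comparison between ends all pairs were over 0.1, so there replicate numbers were treated as pairs in the block alternatives. That rests on these values, since the labels name no shared litter. The reported fits and p-values between ends did not pair arrays, and sets entered only through the replicate block and the random block. Between proximal jaws of controls 1 pair was not. Between genotypes 5 of 12 same-numbered pairs were over 0.1, so numbers do not pair mutants with controls.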

Additional observations from a re-analysis of the deposited data

Results flagged for a closer look

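The end difference of Epha7 in controls was of opposite direction in the jaws, and the interaction of end and jaw, tested in limma, was 0.83 on the log2 scale, adjusted p = 0.0100. It was higher distally in 3 of 3 control mandibles and lower distally in 3 of 3 control maxillae when arrays of the same set were compared. In mutants the end differences of Epha7 were also of opposite direction, 0.32 in the mandible and −0.18 in the maxilla. Their difference of 0.50 was not called, and neither was the genotype effect by jaw and end, −0.33. The cause was not tested.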

How the results depend on the processing

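Calls between ends and jaws are counts of the 9 members past the threshold. Calls for genotype are given for the 8 members other than Epha5, whose genotype difference is a description. In the average genotype effect (3 as reported) the mean of all probe sets called Efnb1 alone. The set as a random block called Epha7 alone, and 1 value per set called none. Of all 13850 genes 4671 were called as reported, 1612 with the random block, 80 with 1 value per set, 2902 and 3076 without control set 1 or 3, and 6971 without mutant set 2. For single regions, jaws and ends, here and below, the share of all genes called is not given for each setting. A count of members that rises or falls there is therefore not a result about the members. In the distal mandible (0 as reported) Efna2 and Efnb1 were called without mutant set 2. The mean of probe sets, quantile normalization again, the replicate block and the Gapdh covariate called none of the 8. In the proximal mandible (0) the Gapdh covariate called Epha7. In the distal maxilla (2), leaving out sets gave 1 to 4, the mean of probe sets 1, only the groups compared 0, the Gapdh covariate 5 and mutant set 2 alone 5. In the proximal maxilla (1, Epha7) the call was lost without any 1 control set and without mutant set 1 or 3. It was also lost with only the groups compared, the mean of probe sets, no filter and the random block. Without mutant set 2 Efnb1 was called as well.

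Between jaws in mutants (0), leaving out sets gave 0 to 1 distally and the random block 2 proximally. In controls distally (2), leaving out sets gave 1 to 2 and the mean of probe sets 1. Between ends, mutant mandible (2) had 1 with the mean of probe sets and 6 with the replicate block or the random block. Mutant maxilla (1) had 2 with the replicate block, 3 with the random block and 0 with only the groups compared. Control mandible (4) had 0 to 6 leaving out sets and 2 with the mean of probe sets. Control maxilla (1) had 0 to 1 leaving out sets, and 2 with either block. The end difference by jaw in mutants (0) had 1 with the random block. In controls (1) it had 0 to 1 leaving out sets, 0 with the mean of probe sets, 2 with either block and 3 with only the groups compared.

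Of the 29 probe sets 12 were lower on average, also of members that were not called, and the same count over all probe sets was not made. Among called members directions turned for Efna2 in the second probe set, −0.0095 on average, and for Epha7 in the third, −0.35 on average, −0.25 in the distal maxilla and −0.25 in the proximal maxilla. Adam10 and Kalrn turned on average with the mean of probe sets, to −0.18 and −0.023. The cause was not tested. The replicate block added Efnb1 in the distal maxilla, adjusted p = 0.0369, and between genotypes its numbers are not pairs. For single regions and interactions, the Gapdh covariate and mutant set 2 alone were chosen after seeing the data. Of 2772 single-member values under alternatives, 2427 counted as the same. Most of the 2772 belong to results that were not called as reported, so this count does not measure how well calls held. Those were calls kept in the same direction, or uncalled values that stayed uncalled and shifted by less than the spread within groups. The direction of uncalled values was not checked for that label. Another 64 gained a call in the same direction, 77 lost a call, and 4 that had been called reversed. The other 200 moved, by more than that spread or to a call in the opposite direction.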
